A study of Homo sapiens with 191 samples.

Results

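The genes of the BCL2 family set the threshold for apoptosis, and their accessible chromatin is described here in GM12878, an established human B-lymphoblastoid cell line that carries Epstein-Barr virus. The 10 genes are a part of the family that was listed by name, and 11 other family members are described further below. No measured value was in the rule, although earlier results of these data were known when the 10 genes were chosen. They comprise 4 pro-survival members (BCL2, BCL2L1, MCL1 and BCL2A1) and 6 pro-death members (BAX, BAK1, BCL2L11, BBC3, PMAIP1 and BID), out of 20090 protein-coding genes (those of chromosomes 1 to 22 plus X). An accessible region was assigned to a gene when its centre lay in the gene body or in the 10 kb on either side, and it was called a promoter region when its centre lay within 1 kb of any annotated transcription start site (TSS) of that gene. By this rule the 10 genes held 78 of the 50000 accessible regions in the list.

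The study profiled single GM12878 cells by ATAC-seq, in which a transposase inserts adapters into open chromatin. Cells were fixed with formaldehyde, permeabilised and transposed in bulk without antibody staining, and single cells were then sorted, with 96 libraries from plate 1 and 95 from plate 2 considered here. All libraries belong to 1 group of 1 untreated cell line, and the authors pooled them to call a single list of regions. Values for single cells, replicates or another condition are therefore lacking in the list, and the depth in reads behind a region is unknown. Each region carries a score, the authors' -log10 of the q-value, which ran between 16.0 and 4437.6 with a median of 31.6. The score ranks regions within this list and reads neither as an expression level nor as a fold. The label of the line was checked against marker genes: 8 of 9 B cell markers had a promoter region, against 0 of 4 T cell, 1 of 4 myeloid (CD14, score 33.1) and 0 of 4 erythroid markers.

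BCL2 family proteins act at the outer membrane of mitochondria. BAX and BAK1 form the pores through which cytochrome c escapes, pro-survival members bind and restrain them, and the BH3-only proteins, here BCL2L11 (BIM), BBC3 (PUMA), PMAIP1 (NOXA) and BID, respond to stress by binding the pro-survival members or by activating the pore formers. Released cytochrome c assembles with APAF1 and activates CASP9 and the executioner caspases. In B cells BCL2A1 and BCL2L1 are known targets of NF-kB, and BCL2 is the gene joined to the immunoglobulin heavy chain locus in follicular lymphoma.

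The sequence under a few of these regions is given first, as examples of CpG content and of the letters of B cell factors. Longer stretches were cut to where they held the most kinds of such letters, so they do not compare members. All stretches are hg19 reference sequence, read 5′ to 3′ on the strand of the gene and outside the annotated exons of protein-coding genes. The first set lies just upstream of annotated starts, with matches to the SP/KLF letters GGGCGG on either strand in capitals. It sets 3 CpG-rich starts, picked as examples, beside the CpG-poor start of BCL2A1, whose stretch holds no match and is all in lower case. Stretches taken in the same way at the CpG-rich strongest promoter regions of BCL2L1 (54 CpG), BAX (46 CpG) and BID (36 CpG) held no match either. Their full regions did hold the SP/KLF letters.

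PMAIP1 start (chr18:57567068-57567227, + strand): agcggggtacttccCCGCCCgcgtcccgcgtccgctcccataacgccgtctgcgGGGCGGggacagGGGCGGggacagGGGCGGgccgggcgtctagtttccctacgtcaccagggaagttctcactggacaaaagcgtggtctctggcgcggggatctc

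BCL2L11 start (chr2:111878331-111878490, + strand): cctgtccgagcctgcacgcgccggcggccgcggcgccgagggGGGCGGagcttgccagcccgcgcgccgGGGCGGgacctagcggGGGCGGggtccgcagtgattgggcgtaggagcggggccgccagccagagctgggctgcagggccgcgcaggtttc

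MCL1 start (chr1:150552215-150552367, - strand): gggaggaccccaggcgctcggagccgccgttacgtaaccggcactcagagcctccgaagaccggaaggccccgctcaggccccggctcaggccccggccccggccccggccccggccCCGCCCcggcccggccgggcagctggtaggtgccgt

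BCL2A1 start (chr15:80263539-80263667, - strand): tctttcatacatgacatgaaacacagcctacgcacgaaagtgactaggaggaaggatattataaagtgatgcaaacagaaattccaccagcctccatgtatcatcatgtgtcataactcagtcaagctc

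The second set was printed for its consensus letters of factors active in B cells, at pro-survival genes only. Pro-death regions also held octamer, RUNX and NF-kB letters, though no AP-1 letters, as counted further below. Capitals mark the octamer (ATGCAAAT), the AP-1 letters (TGANTCA), the RUNX letters (TGTGGT, or ACCACA on the other strand) and, at BCL2A1, the NF-kB consensus. The BCL2 stretch lies downstream of the internal start at 60829102, in a region of score 135.5 centred 539 bp from that start. In the stretch upstream of BCL2A1 the NF-kB matches on both strands overlap and the AP-1 letters follow them within the same run of capitals.

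BCL2 internal start (chr18:60828345-60828504, - strand): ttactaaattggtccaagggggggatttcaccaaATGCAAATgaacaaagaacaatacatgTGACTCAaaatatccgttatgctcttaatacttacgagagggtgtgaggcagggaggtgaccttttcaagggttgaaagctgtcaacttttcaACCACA

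BCL2A1 upstream (chr15:80269952-80270111, - strand): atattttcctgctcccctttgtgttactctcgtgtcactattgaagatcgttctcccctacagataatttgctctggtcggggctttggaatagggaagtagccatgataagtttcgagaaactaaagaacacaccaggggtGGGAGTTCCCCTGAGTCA

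Every one of the 10 listed members had a promoter region, namely 4 of 4 pro-survival and 6 of 6 pro-death genes. Across all protein-coding genes the share was 57.2%. Of the 11 other family members 7 had one (63.6%), so the count does not extend to the whole family. At least 2 promoter regions were found at 2 of 4 pro-survival and 4 of 6 pro-death members, against 24.2% of all protein-coding genes, and at least 1 region of any kind at all 10 members, against 74.7%. The count of members with a promoter region was 8 when only the outermost TSS was used and 7 among the 25237 strongest regions. The 57.2% belongs to any TSS and the full list, and no share of all genes is given for these settings. Genes were taken by name, and members are not replicates, so these counts carry no test.

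The number of regions differed widely among members. Pro-survival members held between 3 and 32 regions (median 7), 49 in all, and pro-death members between 2 and 9 (median 4), 29 in all. The median over all protein-coding genes was 2. BCL2 alone contributed 32 of the 78 regions (41.0%) and ranked 19 among the 20090 genes. Since BCL2 spans 196.8 kb and PMAIP1 only 4.31 kb, the counts were also set against the sequence searched. Per 100 kb of gene and flanks, the median was 12.3 regions in pro-survival and 10.5 in pro-death members, against 2.64 over all protein-coding genes. The densities of the groups overlapped over most of their range, at 8.80 to 18.0 in pro-survival and 7.41 to 20.6 in pro-death members. PMAIP1 had the highest density (20.6), above 98.3% of protein-coding genes, followed by MCL1 (18.0), BID (14.8) and BCL2 (14.8). This order depended on neighbouring summits. With summits of 1 called region counted once, BID stood first (13.2), followed by PMAIP1 (12.3) and BAK1 (10.8), while MCL1 had 10.3, BCL2 9.69 and BBC3 the lowest density (6.26), against a median of 2.36 over all protein-coding genes. In the full count BAX had the lowest density (7.41), above 82.5% of genes. The order of the groups by density turned round with the way regions were counted. It was -0.68 (pro-survival minus pro-death) when summits of 1 called region counted once, -1.88 among the 25237 strongest regions, and -0.91 without BCL2 and BCL2L11, against 1.86 in the full count.

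**Figure D1:**
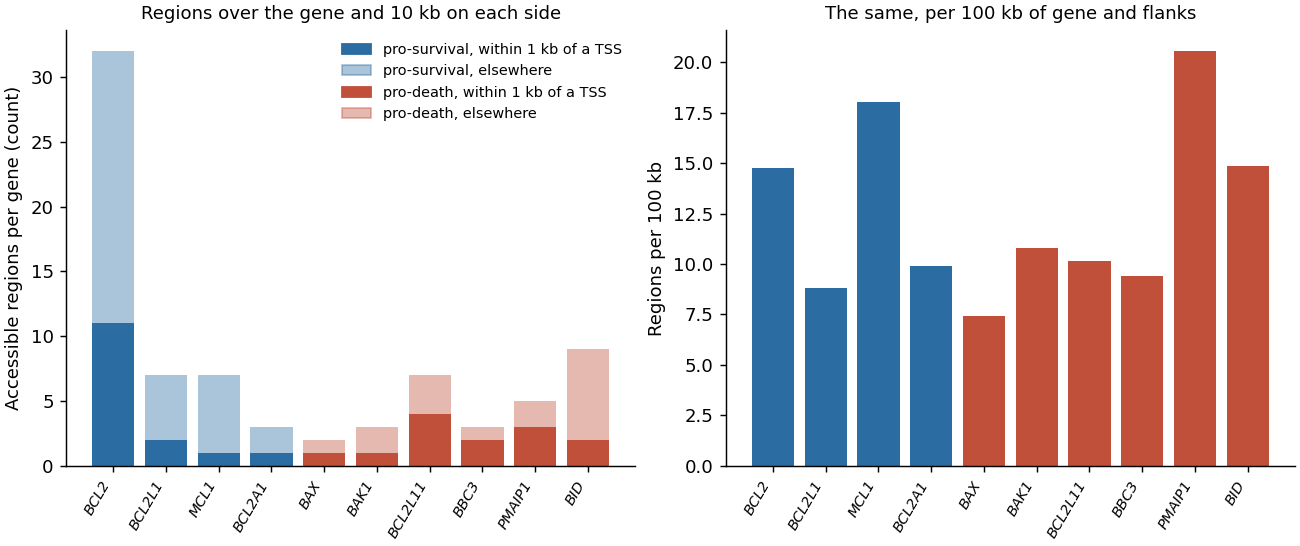
Number of accessible regions at each gene, 10 kb flanks included (left), and the number per 100 kb of that sequence (right), for pro-survival (blue) and pro-death (red) members; dark parts on the left lie within 1 kb of a TSS of the gene. BCL2 holds 32 regions, while per 100 kb PMAIP1 (20.6) and MCL1 (18.0) stand highest.

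Promoter scores separated single members more than the groups. The strongest promoter region had a median score of 151.3 in pro-survival members (22.8, 82.1, 220.6 and 352.7) and of 37.1 in pro-death members (25.7, 28.6, 31.6, 42.5, 83.9 and 616.9). The groups overlapped, since PMAIP1, a pro-death gene, stood first and BCL2A1, a pro-survival gene, last. The median over the 11499 protein-coding genes with a promoter region was 129.6, with quartiles of 49.1 and 334.2. PMAIP1 exceeded 87.1% of those genes, BCL2 76.1% and BCL2L1 64.8%, whereas BID (9.97%) and BCL2A1 (7.22%) lay near the lower end. The group difference of 114.3 rested in part on which starts were read. It was 12.6 with the canonical transcript of each gene alone, an alternative chosen after seeing the data. BBC3 had no promoter region in that alternative and was counted below all other members. In that alternative the BCL2L1 region of score 220.6 fell just outside the 1 kb window of the canonical start.

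**Figure D2:**
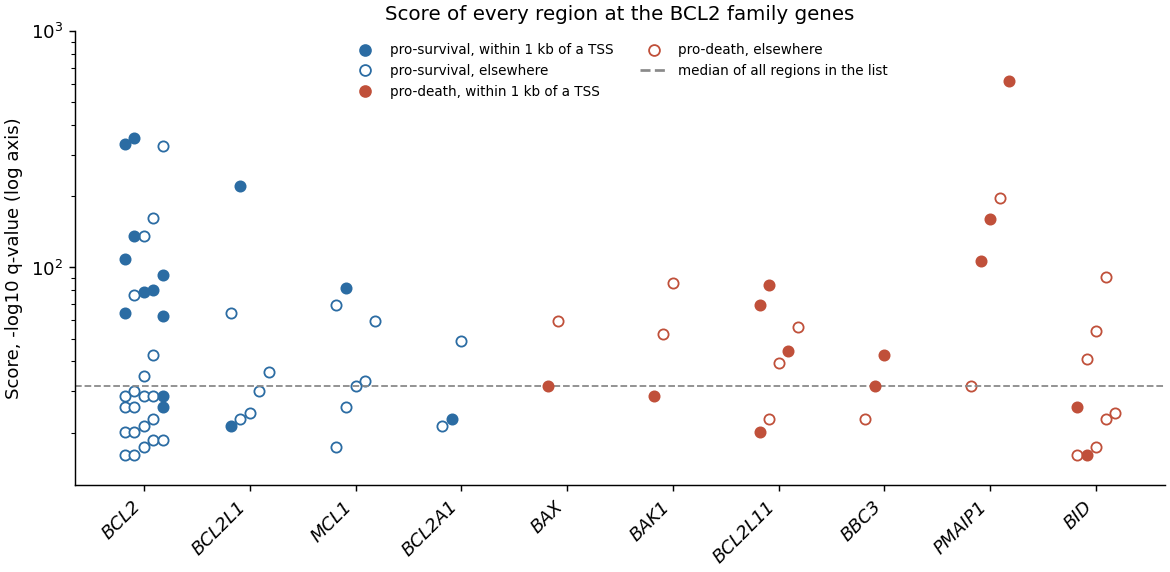
Score (-log10 q-value, log axis) of each of the 78 regions at the 10 genes; filled points lie within 1 kb of a TSS of the gene, open points elsewhere, and the dashed line is the median of all regions (31.6). The highest point is the PMAIP1 promoter region (616.9), and every BCL2L1 region but one lies under 100.

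Among the pro-survival genes BCL2 (chromosome 18 at 60790579 to 60987361, minus strand) was accessible mostly at the far end of the gene. Its 7 annotated starts fall into an upstream set within 1.46 kb of the outermost start and 3 internal starts at 158.3, 161.9 and 181.7 kb. At the upstream set 3 promoter regions had scores of 62.6, 78.5 and 93.2, and the start of the canonical transcript lay 479 bp from the nearest of them (62.6). At the internal starts there were 8 promoter regions, with scores between 25.7 and 352.7. The strongest region of the gene (352.7, rank 2822 of the list) was centred 21 bp from the internal start at 60829102, and the next (331.9) lay 611 bp upstream of that start.

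The regions at the internal starts differed in base composition from those at the upstream starts. They held 4 to 10 CpG dinucleotides each and 44.1% to 52.5% GC, against 35 to 75 CpG and 61.7% to 78.4% GC at the upstream starts. They were called promoter regions by annotation alone, and accessibility does not show whether transcription starts there.

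Intron 2 of the canonical BCL2 transcript, 189.3 kb long, held 28 of the 32 regions, and 22 of the 32 lay more than 100 kb from the outermost start. Joining regions closer than 5 kb gave 7 clusters. The largest, with 9 regions over 13.5 kb, carried 57.3% of the summed score of the gene and included an intronic region of score 327.4 at 60822460 to 60822960, away from any annotated start. The cluster at the upstream starts had 8 regions and 19.4% of the summed score, with its maximum (161.7) in the intron, 8.40 kb into the gene, at 60978708 to 60979208. Another cluster, with 7 regions around the start at 181.7 kb, carried 14.7% and reached 108.2. The 32 regions are summits of 21 called regions, so several neighbours share 1 call.

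**Figure D3:**
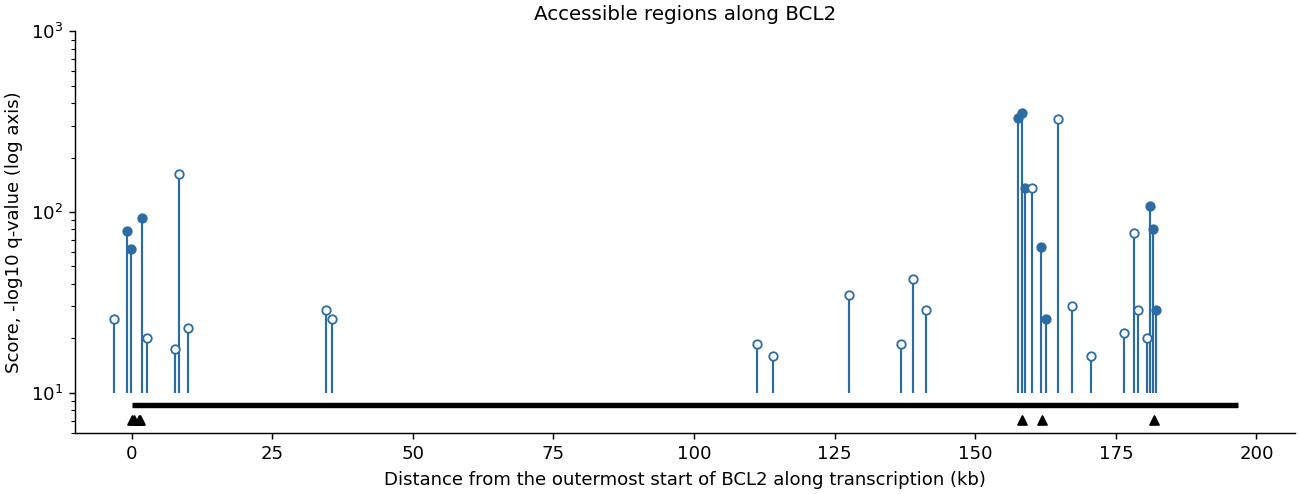
Score (-log10 q-value, log axis) of the 32 regions along BCL2, by distance from its outermost start in kb; the black bar is the gene, triangles are annotated starts, and filled points lie within 1 kb of a start. The tallest lines stand between 157.6 and 164.7 kb (352.7, 331.9 and 327.4), far from the upstream starts.

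BCL2L1, which encodes the anti-apoptotic BCL-XL and, by splicing, the pro-apoptotic BCL-XS, lies on chromosome 20 at 30252255 to 30311792 and held 7 regions. Its strongest region (220.6, 54 CpG) was centred 120 bp inside the outermost start. The canonical start, 1.12 kb inside the outermost start, had only a weak region within 1 kb (21.4). The strongest region fell just outside that window, since its centre is 30311672 and the canonical start is 30310671. The other regions were 3 in the gene body with scores of 22.8 to 36.2, 1 of 30.1 that also lay within 1 kb of a start of the antisense gene BCL2L1-AS1, and 1 downstream of the gene (64.3).

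MCL1, a short-lived pro-survival protein, lies on chromosome 1 at 150533371 to 150552214 and had 1 promoter region (82.1, 49 CpG), 31 bp upstream of its canonical start. The other 6 regions, with scores between 17.3 and 69.6, lay 11.0 to 18.1 kb into the annotated gene. The canonical MCL1 transcript spans 5.05 kb and holds none of these centres, and 4 of the 6 lay within 1 kb of a start of ADAMTSL4-AS1 or of a non-coding neighbour. With the canonical transcript MCL1 held 3 regions in place of 7.

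BCL2A1 (BFL1), a pro-survival gene induced by NF-kB, lies on chromosome 15 at 80253234 to 80263538. Its only promoter region had a score of 22.8, the lowest among the strongest promoter regions of the members, and was CpG-poor (7 CpG, 43.3% GC). A stronger region (49.1) lay 6599 bp upstream, at 80269887 to 80270387, with the NF-kB and AP-1 letters printed above, and another of score 21.4 lay 7563 bp upstream.

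Among the pro-death genes the pore formers had 1 promoter region each, with scores near the median of all regions in the list. Beside the strongest promoter regions of other genes they were low. BAX exceeded 14.5% and BAK1 12.5% of protein-coding genes with a promoter region. BAX (chromosome 19 at 49458072 to 49465055) had a promoter region of score 31.6, centred 92 bp upstream of its outermost start. The only other region in its window (59.2) lay within 1 kb of a TSS of FTL, the ferritin light chain gene downstream, and was the single region among the 78 at a start of another protein-coding gene. BAK1 (chromosome 6 at 33540324 to 33548070) had a promoter region of 28.6 and 2 stronger regions outside the gene, at 5578 bp upstream (52.4) and 8.95 kb from the start on the downstream side (85.8).

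The BH3-only members covered nearly the whole range of the 10 genes. PMAIP1, or NOXA, lies on chromosome 18 at 57567228 to 57571537 and held 5 regions. The strongest (616.9, rank 1359 of the list) was centred 15 bp upstream of its start, at 57566963 to 57567463, with 60 CpG and the repeated GGGCGG printed above. Regions at 670 bp upstream (106.3) and 876 bp downstream of the nearest start (159.7) flanked it. A region of score 197.1 lay 4.86 kb past the outermost start, beyond the gene end, and one of score 31.6 lay 2578 bp upstream. The median score of PMAIP1 regions was 159.7, against medians of 22.8 to 52.4 at the other 9 members.

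BCL2L11, or BIM, lies on chromosome 2 at 111876955 to 111926021 and was accessible over a broad CpG-rich start. Its 4 promoter regions had scores of 83.9, 20.0, 69.6 and 44.2, with 48 to 72 CpG each. None lay within 1 kb of the outermost start, whose nearest region was 1466 bp away, whereas the canonical start had one at 70 bp (83.9). The 2 regions upstream (55.8 and 39.4) lay within 1 kb of a start of ACOXL-AS1, and only 1 region (22.8) was found in the rest of the gene, 48.3 kb from the outermost start.

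BBC3, or PUMA (chromosome 19 at 47724079 to 47736023), had a promoter region only by its non-coding annotation. Its 3 regions (22.8, 42.5 and 31.6) lay 4197 to 5512 bp into the gene. The 2 promoter regions stood at the start of a retained-intron transcript, 5.58 kb from the outermost start, and the weaker of them was also within 1 kb of the start of MIR3191. No region lay within 1 kb of either start of its protein-coding transcripts, where the nearest was 2630 bp and 4197 bp away. BBC3 was thus the single member without a promoter region when only protein-coding transcripts were used.

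BID (chromosome 22 at 18216904 to 18257536), which links death receptors to mitochondria after cleavage by CASP8, had 9 regions, the most of any pro-death member. Its promoter regions were weak (25.7 and 16.0, the lowest score in the list). The stronger ones lay upstream of the gene, at 2622 bp (54.1, within 1 kb of a start of LINC00528), 4913 bp (40.9) and 6804 bp (91.3).

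**Figure D4:**
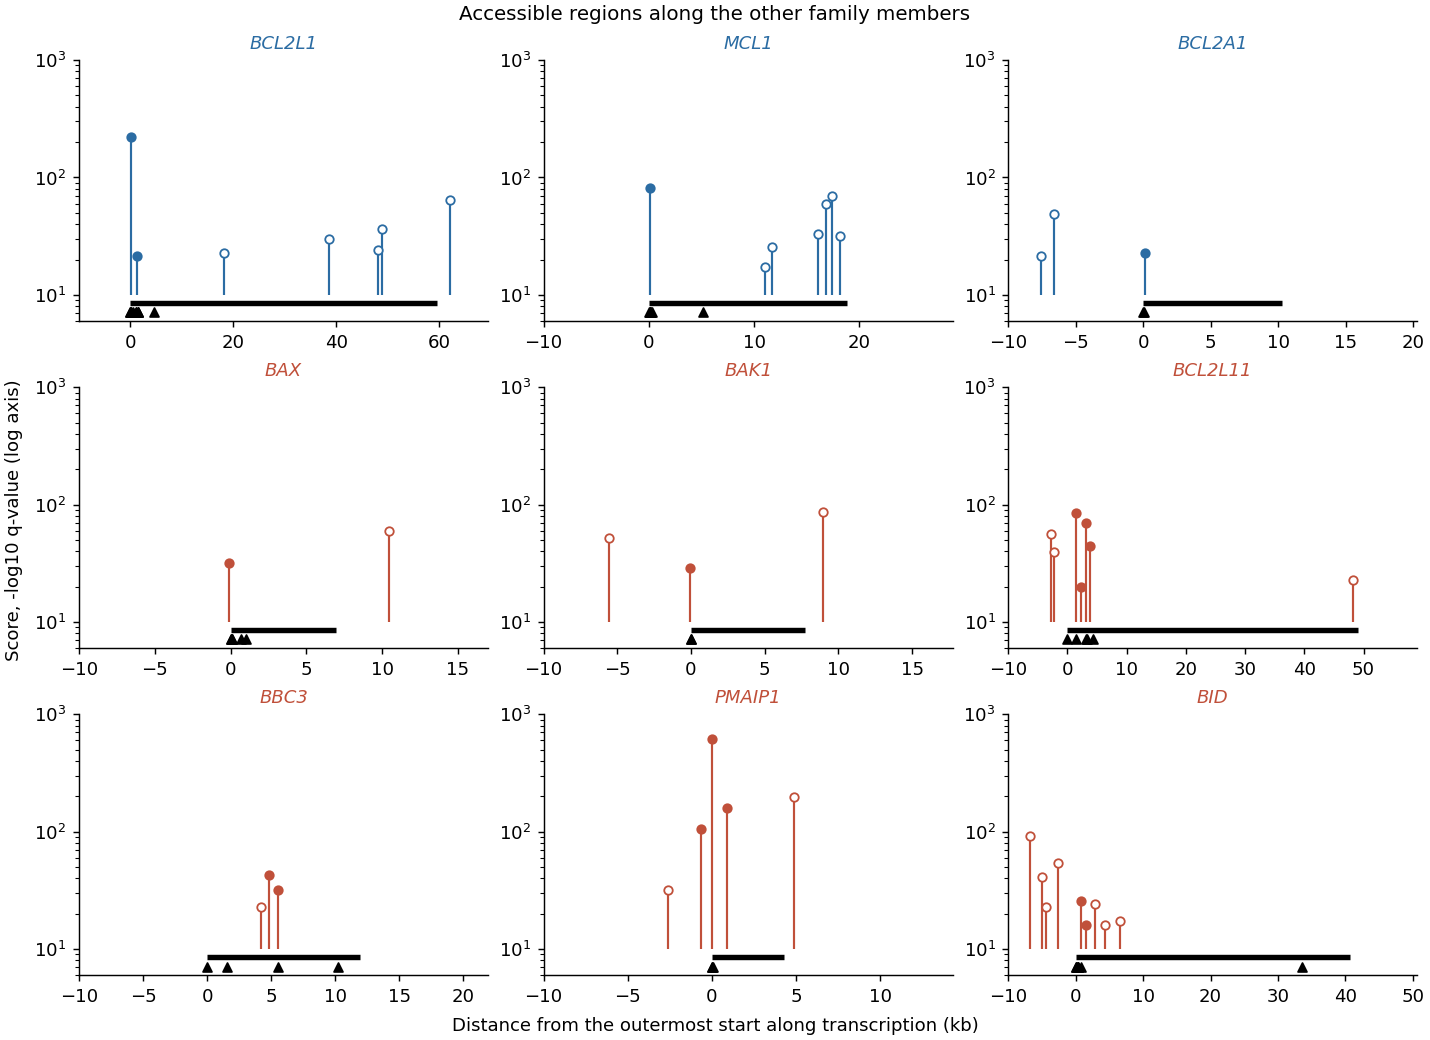
Score (-log10 q-value, log axis) of the regions at the other 9 members, by distance from the outermost start of each gene in kb; black bars are genes, triangles annotated starts, and filled points lie within 1 kb of a start. The start is the highest point at BCL2L1, MCL1, BCL2L11 and PMAIP1, while at BCL2A1, BAX, BAK1 and BID a region outside the gene is higher.

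The places of the regions were set beside those of the 50583 pairs of a protein-coding gene and a region by the same rule. Introns, more than 1 kb from any start of the gene itself, held 29 of 49 pro-survival regions (59.2%) and 4 of 29 pro-death regions (13.8%), against 34.3% of all pairs. Of the 29 pro-survival ones 19 were in BCL2, and 5, in MCL1 and BCL2L1, lay within 1 kb of a start of another gene. Promoter regions made up 15 of 49 (30.6%) and 13 of 29 (44.8%), against 37.3%, and upstream flanks 3 of 49 (6.12%) and 8 of 29 (27.6%), against 10.2%. Of the 8 pro-death regions in upstream flanks 4 were at BID. Those at BCL2L11 lay within 1 kb of a start of ACOXL-AS1, and a BID one of a start of LINC00528. The flanks were the same for every gene, while the median gene span was 39.2 kb in pro-survival and 9.85 kb in pro-death members. The part of gene length in these shares was not tested. At promoter regions the median GC content was 49.5% in pro-survival and 64.7% in pro-death members, with a median of 10 and 36 CpG, beside 62.1% GC and 36 CpG at all protein-coding promoter regions. The CpG-poor internal starts of BCL2 supplied 8 of the 15 pro-survival promoter regions.

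The consensus letters of several factors were counted in each region on both strands. A match describes the sequence and does not show binding. The AP-1 letters TGANTCA occurred in 10 of 49 pro-survival regions (20.4%), 7 of them in BCL2, and in 0 of 29 pro-death regions. They occurred in 16.9% of all regions, 9.01% of those at protein-coding promoters and 20.8% of the others. The SP/KLF letters GGGCGG occurred in 10 of 49 pro-survival (20.4%) and 15 of 29 pro-death regions (51.7%), against 34.0% of all regions and 68.9% of those at protein-coding promoters. The octamer ATGCAAAT was found in 8 of the 78 regions (10.3%), 5 in BCL2 and 1 each in BCL2A1, BBC3 and PMAIP1, against 3.30% of all regions.

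The NF-kB consensus matched 4 of 49 pro-survival (8.16%) and 6 of 29 pro-death regions (20.7%), against 11.5% of all regions, and 4 of the 10 matches lay in BID. RUNX letters (TGTGGT) were found in 20 of 49 (40.8%) and 9 of 29 (31.0%), against 32.8%, and 17 of the 29 matches were in BCL2. Over the list they occurred in 19.6% of regions at protein-coding promoters and 39.3% of the others. PU.1 letters (AGAGGAAG) were found in 5 of 49 (10.2%) and 5 of 29 (17.2%), against 7.93%. The ETS letters CCGGAAGT occurred once, at the BCL2L1 promoter, and the cyclic AMP response element TGACGTCA at no member, against 2.76% and 1.27% of all regions. Matches do not separate overlapping letters of related factors, and members share neighbouring summits, so the regions are not independent.

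The rest of the pathway gave a scale for these values. Of 11 other family members 7 had a promoter region (63.6%, near the 57.2% of all protein-coding genes), with a median score of 42.5. BMF, a BH3-only gene, had the strongest (184.5) and 10 regions, with a density of 24.4 per 100 kb above that of any of the 10 members. BCL2L2 (BCL-W), a pro-survival gene, followed with 182.4 at a promoter shared with PPP1R3E, and BCL2L13 with 125.7. BAD, a BH3-only gene, had 42.5 at a promoter shared with GPR137, BCL2L14 24.3, BCL2L12 18.7 at a promoter shared with IRF3, and HRK, another BH3-only gene, 17.3. BCL2L10, BCL2L15, BOK and BIK had no promoter region, and BOK and BIK had no region at all within 10 kb.

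Genes that carry out apoptosis downstream were accessible at stronger promoters. All 15 had a promoter region, against 57.2% of all protein-coding genes. The median score of the strongest promoter region was 447.1, against 62.3 in the 10 family members and 129.6 over protein-coding genes with one. CYCS, which encodes cytochrome c, led with 1797, followed by APAF1, the scaffold of the apoptosome (906.8, shared with IKBIP), the mitochondrial protease HTRA2 (832.9, shared with AUP1) and XIAP, an inhibitor of caspases (581.8). Of the 10 members only PMAIP1 (616.9) exceeded XIAP. Yet the region count ran the other way, with a median of 3 regions per execution gene, against 6 per gene among the 10 members, and 5.72 against 10.5 per 100 kb. The 11 other family members had medians of 3 regions and 4.42 per 100 kb. CASP10 (18.7) and FADD (31.6) lay at the low end of the execution list. These comparisons are between groups of genes in 1 pooled list, and the genes were chosen with earlier results of these data known, so no test was made.

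**Figure D5:**
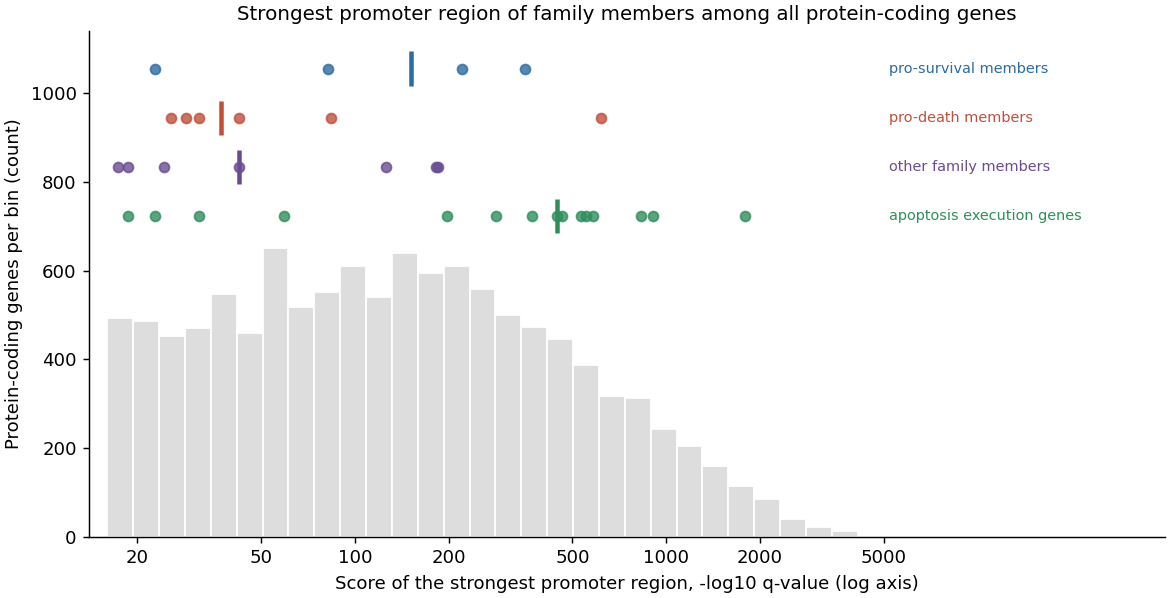
Score (-log10 q-value, log axis) of the strongest promoter region of each gene: points are genes of 4 lists, vertical bars their medians (151.3, 37.1, 42.5 and 447.1 going down), and grey bars the number of all protein-coding genes per score bin. Row height of the points has no meaning, and the execution genes reach the highest score (1797).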

How the data were processed

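Libraries of 191 single GM12878 cells in 1 group were covered. According to the methods, the authors aligned adapter-trimmed pairs to hg19, filtered them for quality, duplicates and mitochondrial origin, pooled the cells for summit calling, and deposited the 50000 best summits by q-value (501 bp each). The submitters' notes name Bowtie2 2.1.0, Picard 1.79 and MACS2 (version: not given in the sources used here). As deposited, the score was read as -log10 of the q-value. Sequence was GRCh37, which is hg19, annotated with GENCODE 44 lifted to that build. Positions are 1-based. A promoter region was centred within 1 kb of any TSS of the gene. Counts, densities and scores were set beside those of all protein-coding genes, with no test, since 1 pooled list has no replicates. The motifs counted were 16, each on both strands. IRF, EBF1, FOXO, NFY, NRF1, E-box and CTCF motifs were counted and are not described. Some further items are not reported here. The members and lists were chosen with earlier results of these data known. All 10 members, all other family members, and the 4 strongest execution genes were named by rule; BMF, CASP10 and FADD were singled out with their values known. Results were recomputed with promoter windows of 500 bp and 2.5 kb and with other choices of the TSS set, the flank (0 or 50 kb), the counting of summits, the part of the list and the members. The counting was tested on planted regions. Python 3.11.15, numpy 2.4.6, pandas 2.3.3 and matplotlib 3.10.9 were used.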

Additional observations from a re-analysis of the deposited data

How the results depend on the processing

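Of the recomputed values, 84 stayed within 1.5 times the value reported, 19 moved further and 3 reversed. Some of the 84 could not have changed, so the tally does not measure how firm the results are. A wider promoter window cannot lower the count of members with a promoter region. Leaving out the lowest score touches the strongest promoter region of no member. The 3 that reversed all concern the difference of median density (pro-survival minus pro-death, 1.86 per 100 kb), which was -0.68 with summits of 1 called region counted once, -1.88 among the 25237 strongest regions and -0.91 without BCL2 and BCL2L11. It fell to 1.16 with no flank and to 0.34 with the canonical transcript. The differences in median regions and in median promoter score kept their sign in all alternatives run.

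Among the 25237 strongest regions, the members held a mean of 4.3 regions in place of 7.8, the medians were 4 regions in pro-survival and 2.5 in pro-death members (difference 1.5), and the pro-survival density was 5.35. With flanks of 50 kb the mean was 13.2 regions, with medians of 11.5 and 10.5 (difference 1), and with no flank the pro-death median was 2. The median promoter score of pro-survival members was 80.3 with the outermost TSS alone (difference 53.2), 82.1 without BCL2 and BCL2L11 (difference 50.5) and 42.7 with the canonical transcript (difference 12.6), which also gave a difference of 1 in median regions. In all recomputed promoter score medians a member without a promoter region was counted below all others, not left out. With the outermost TSS and the canonical transcript this gave pro-death medians of 27.2 and 30.1, lower than over members with a promoter region alone. With the canonical transcript the BCL2L1 region of score 220.6 fell just outside the 1 kb window. The canonical transcript and the removal of regions at starts of other protein-coding genes were chosen after seeing the data. The cause of these shifts was not tested.

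The count of members with a promoter region was 10 with windows of 500 bp and 2.5 kb, 9 with protein-coding or canonical transcripts (without BBC3), 8 with the outermost TSS (without BCL2L11 and BBC3), and 7 among the 25237 strongest regions (without BCL2A1, BAK1 and BID). The share of all protein-coding genes (57.2%) was taken with any TSS, 1 kb and the full list. These counts have no matching share beside them. No paired analysis was possible because all libraries form 1 group and the list holds no value per library. The depth behind each region is unknown, so a missing region does not show closed chromatin. Cells with more fragments count for more in a pooled call, and long genes have more sequence in which a region can fall.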
